A study of Drosophila melanogaster with 2 samples.

Results

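The genes described here stand alone on the autosomal arms 2L, 3L and 3R of Drosophila melanogaster, with at least 5000 bp between each of them and the nearest gene on either side. They were chosen by position and name alone: a symbol that is a CG number, a width of at least 500 bp, no overlap with another gene of the table, and a start that leaves out the pericentric end of each arm (coordinates are those of the dm3 build). The rule found 182 genes, which were 182 of the 4480 CG-numbered genes of that width on those arms and of the 15627 genes of the table. There were 64 on 2L, 46 on 3L and 72 on 3R, with 91 on each strand. They started between 1240038 and 21981572 on 2L, 97628 and 21683712 on 3L and 403661 and 27864095 on 3R. The distance to the nearest gene ran from 5058 to 41685 bp with a median of 8998 bp. Only genes of the table were counted as neighbours. A CG number is the name that the fly genome annotation gives to a predicted gene, and most genes still called by one had not been named from a mutant or a studied product.

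The study asked where the linker histone dBigH1 lies along the genome of the early embryo. There was 1 library of chromatin immunoprecipitated with an antibody against dBigH1 and 1 library of input DNA, made without an antibody. Both came from embryos of w1118, a white-eyed stock often used as wild type, collected 0 to 2 h after fertilization. With 1 library of each kind, the differences given here could not be set against replicate error, and none was tested.

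Linker histones bind the nucleosome where DNA enters and leaves it and help to fold nucleosome arrays. dBigH1 is the linker histone of the early fly embryo, supplied by the mother and replaced by the somatic H1 in most cells once the embryo transcribes its own genome, and it is also found in the germ line. Fly genes used in every cell are often packed close together, while many genes used in a single tissue, or switched by distant enhancers, lie in long stretches without other genes.

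The values are reads over each whole gene, introns included, per kb of gene and scaled to library depth (RPKM), deposited as log2(RPKM + 1). The ChIP library had been scaled by 8803832 reads and the input by 6272887. Reads summed over the genes of the table came to 59.1% and 58.9% of these totals. Reads shared by overlapping genes may count more than once in those sums. The 182 isolated genes held 43892 ChIP reads (11 to 4817 a gene, median 83.5) and 27560 input reads (9 to 2801 a gene, median 50). The log2 ratio used below is the deposited ChIP value minus the deposited input value. Adding 1 RPKM to both understates the ratio where signal is low. The 95% interval given with a gene is an exact Clopper-Pearson one for the part of its reads that came from the ChIP, moved to this scale. It takes in counting error and nothing else, and PCR copies make it too narrow. The interval given with a median is the binomial 95% one over ranked genes. It gives the uncertainty of the median with genes taken as independent, not the spread of single genes. Isolated genes that adjoin one another may not be independent. Overlap of such intervals does not show that medians are equal.

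Isolated genes had more dBigH1 ChIP signal relative to input than genes with near neighbours. Their median log2 ratio was 0.19 (interval 0.14 to 0.24), a ratio of 1.14, with quartiles of -0.05 and 0.38 and a range of -0.74 to 0.82. The 2425 close genes, CG-numbered genes of the same arms and width that overlap no gene but have one nearer than 5000 bp on at least one side, had a median of 0.011 (-0.0031 to 0.025). The 1873 overlapping genes, alike except that they share bases with another gene, had a median of -0.03 (-0.04 to -0.01). Over all 15627 genes it was -0.04. The isolated genes thus lay 0.18 above the close genes, 0.21 above the overlapping genes and 0.23 above all genes. Of the 182, 134 (73.6%) had a ratio above the median of all genes, against 56.9% of close and 52.0% of overlapping genes.

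**Figure D1:**
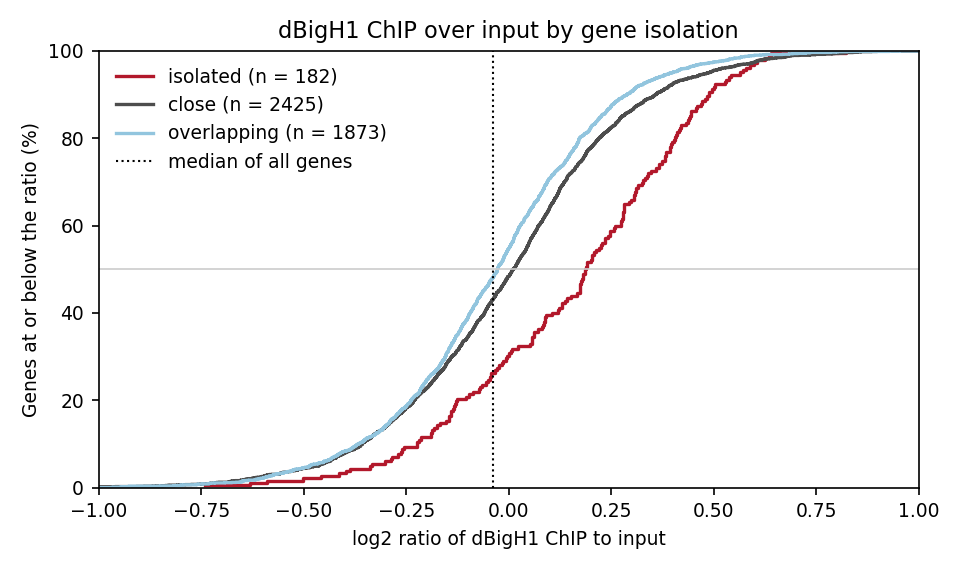
Cumulative share of genes (%, vertical axis) by log2 ratio of dBigH1 ChIP to input (horizontal axis) for 182 isolated, 2425 close and 1873 overlapping CG-numbered genes of 2L, 3L and 3R, with the median of all genes dotted. The isolated genes lie to the right over most of the range, with a median of 0.19 against 0.011 and -0.03, and the curves meet near the top.

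Genes with a marked excess of ChIP were more frequent among isolated genes than over the table, and genes with a marked deficit were rarer. A log2 ratio of at least 0.3 was reached by 62 isolated genes (34.1%), against 11.4% of all genes, 13.6% of close genes and 9.29% of overlapping genes. A ratio of at most -0.3 was found in 11 isolated genes (6.04%), against 18.7% of all genes, 14.0% of close genes and 14.1% of overlapping genes. By counting intervals, 42 isolated genes (23.1%) exceeded the all-gene median and 3 (1.65%) lay under it, and over the table these shares were 10.6% and 9.59%. The 3 were CG12007, CG15395 and CG34380. The share above was not particular to this set. It was 25.3% in the 281 genes that flank an isolated gene without being one and 24.4% in the 135 isolated genes with a name. At 2000 to 5000 bp from the nearest gene it was 22.6%. The shares below were 6.05%, 16.3% and 0.685% in the same order. All 182 genes had at least 9 reads in each library, and 173 had at least 20 input reads. The SD of the ratio among isolated genes was 0.28, and counting error alone would give 0.23, so much of the spread among single isolated genes is of the size of counting error.

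The difference from genes with neighbours lay more in the input than in the ChIP. Median ChIP signal was 6.71 RPKM over isolated genes (quartiles 5.94 and 7.63), 6.56 over close genes and 6.55 over overlapping genes. Median input signal was 5.63 RPKM over isolated genes (quartiles 5.002 and 6.84), 6.50 over close genes and 6.69 over overlapping genes. On the log2(RPKM + 1) scale the median level of isolated genes was 0.03 higher than that of close genes in the ChIP and 0.18 lower in the input. Both libraries are single, so a property of these genes and a property of the input library cannot be told apart.

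**Figure D2:**
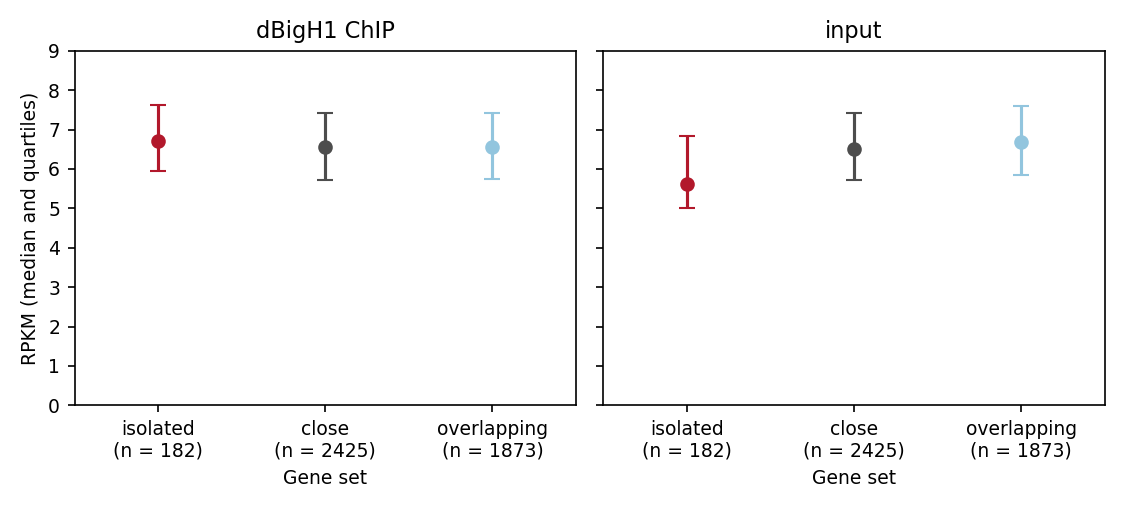
RPKM (vertical axis, from 0) in the dBigH1 ChIP library (left) and the input library (right) for isolated, close and overlapping genes, with points at the median and bars from the lower to the upper quartile. The ChIP medians lie between 6.55 and 6.71, and the input median of the isolated genes, 5.63, lies below 6.50 and 6.69.

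Within terciles of input signal the isolated genes still had the higher median, by less. The 4480 CG-numbered genes were split into terciles of input RPKM. In the lowest tercile, 1.13 to 6.02 RPKM, the 107 isolated genes reached a median ratio of 0.28 (0.21 to 0.33), against 0.17 for the 847 close genes. In the middle tercile 36 isolated genes had 0.11 (0.0061 to 0.31) against 0.0050 for close genes, and in the highest tercile, from 7.15 RPKM, 39 had -0.10 (-0.17 to -0.03) against -0.15. In the middle and highest terciles the interval of the isolated genes reached close to the close-gene median or took it in. The differences of 0.11, 0.10 and 0.06 were smaller than the 0.18 of the undivided sets. Terciles are wide and input enters the ratio, so these differences are not differences at equal input. Whether isolated genes had less input than close genes inside a tercile was not tested. Terciles of ChIP RPKM, tried after the data were seen, gave differences of 0.25, 0.16 and 0.17 from low to high.

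Isolated genes were higher at each gene width. In the shortest tercile (500 to 1316 bp) 83 isolated genes had a median of 0.22, against 0.03 for close genes. In the middle tercile (1317 to 2605 bp) 52 had 0.20 against -0.03, and in the longest tercile (2608 bp and more) 47 had 0.18 against 0.03. The isolated genes were shorter, with a median width of 1487 bp against 1785 bp in close and 1919 bp in overlapping genes.

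**Figure D3:**
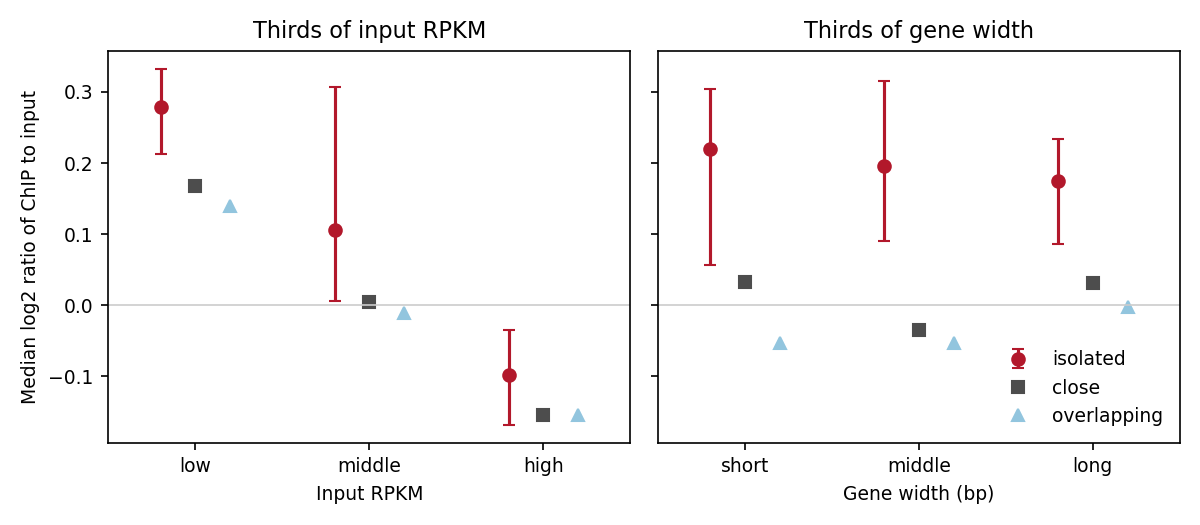
Median log2 ratio of ChIP to input (vertical axis) for isolated, close and overlapping genes within terciles of input RPKM (left) and of gene width (right), with bars for the 95% interval of the isolated median. In each tercile of both panels the isolated genes stand above the other sets, and in the left panel all medians fall as input rises.

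The median ratio climbed from class to class of distance to the nearest gene, below the 5000 bp limit as well as beyond it. Whether it steps up at that limit was not tested. Genes whose nearest gene was under 500 bp away had a median of -0.02 (1724 genes), close to the -0.03 of overlapping genes. At 500 to 2000 bp the median was 0.08 (0.05 to 0.10, 555 genes), and at 2000 to 5000 bp 0.11 (0.06 to 0.15, 146 genes). Among isolated genes it was 0.17 (0.09 to 0.26) for the 103 at 5000 to 10000 bp and 0.20 (0.15 to 0.28) for the 79 at 10000 bp or more. From 500 bp on, each class has an interval that overlaps that of the next, so classes adjacent in that order were not clearly apart. The interval of the farthest class lies above that of 2000 to 5000 bp. The share of genes at 0.3 or more was 12.0%, 15.5%, 25.3%, 33.0% and 35.4% from the nearest class to the farthest. The input median was 6.68, 6.11, 5.87, 5.58 and 5.77 RPKM in the same order, while the ChIP median was 6.56, 6.56, 6.56, 6.54 and 6.95 RPKM.

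**Figure D4:**
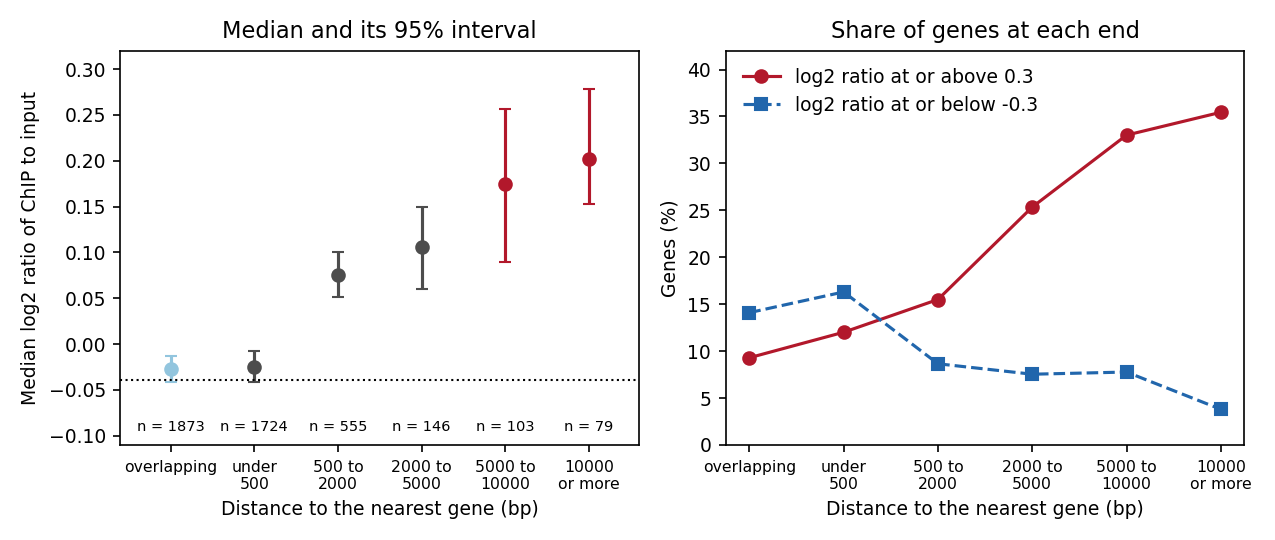
Median log2 ratio with its 95% interval (left) and share of genes (%) at or beyond 0.3 in each direction (right), by distance to the nearest gene in bp, for overlapping genes and 5 distance classes. The median climbs from -0.02 under 500 bp to 0.20 at 10000 bp or more, and the shares of high and low genes cross between the classes under 500 and 500 to 2000 bp.

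The ratios of genes just inside and just outside the limit overlapped. The 5 isolated genes nearest to it lay 5058 to 5080 bp from a neighbour: CG14316 (0.26), CG34377 (0.13), CG42778 (0.24), CG12538 (-0.34) and CG17349 (-0.10). The 5 genes just outside, at 4826 to 4987 bp, were CG42758 (0.28), CG10909 (0.30), CG9014 (-0.05), CG33648 (0.40) and CG4341 (0.18). At the width limit CG31644 (504 bp, 0.62), CG12589 (517 bp, -0.22) and CG17304 (534 bp, -0.22) were inside, and CG32198 (470 bp, -0.23), CG33259 (436 bp, 0.74) and CG17570 (405 bp, 0.16) were outside. In all, 8 genes were left out by width alone.

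Bare sequence before the start of a gene and after its end went with a higher ratio to a like degree. Of the genes that overlap none, the 182 with at least 5000 bp on both sides had a median of 0.19. The 265 with that distance on the upstream side only had 0.08 (0.04 to 0.12), and the 228 with it on the downstream side only had 0.09 (0.05 to 0.14). The 1932 with neither had -0.0099 (-0.03 to 0.0075). Among isolated genes, the 87 whose upstream neighbour lies on the other strand had a median of 0.18 and the 95 whose upstream neighbour lies on the same strand 0.20, with overlapping intervals. The intervals by strand of the gene overlapped too, with 0.20 (0.14 to 0.28) on the minus and 0.18 (0.08 to 0.25) on the plus strand.

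Isolated genes called by a CG number were higher than isolated genes that already had a name. The 182 CG-numbered genes, with their median of 0.19, lay 0.19 above the 135 genes that the same rule gave with a name in place of a CG number, whose median was -0.0058 (-0.06 to 0.05). A ratio of 0.3 was reached by 34.1% of the CG-numbered genes against 11.9% of the named, and 6.04% of the CG-numbered genes against 14.1% of the named were at -0.3 or below. Counting intervals above the all-gene median were about as frequent in both, 23.1% against 24.4% of the named. Those below were 1.65% against 16.3%. The named genes had more reads, with a median of 251 in the ChIP against 83.5, which narrows their intervals. The CG-numbered isolated genes were shorter (median width 1487 bp, against 4636 bp in the named) and had less input (5.63 RPKM, against 6.47 RPKM in the named). At like width the difference stayed: CG-numbered genes of 500 to 2000 bp had 0.22 (122 genes) against 0.04 (33 named genes), those of 2000 to 5000 bp 0.18 (32) against -0.07 (37), and those of 5000 bp or more 0.16 (28) against -0.0058 (65). In the lowest, middle and highest terciles of input RPKM it was 0.12, 0.12 and 0.06. Named and CG-numbered genes differ in how they came to be chosen, and that part was not tested.

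The highest isolated gene was CG14298, at 3R 14701430 to 14702928 on the plus strand. It had 92 ChIP reads and 33 input reads, or 6.97 and 3.51 RPKM, which gives a log2 ratio of 0.82 (interval 0.34 to 1.30). Its ChIP level was close to the isolated median, and its input was among the low ones. Its neighbours, 23909 and 20914 bp away, were high as well: CG31226 had 1.10 and CG14297 had 0.42. The other high genes named here had at least 20 input reads. That floor left out CG34286 (0.64, 12 input reads) and CG4891 (0.59, 17 input reads). CG4218, at 2L 14547520 to 14549075, had 121 ChIP and 52 input reads and a ratio of 0.64 (0.22 to 1.06). The genes flanking CG4218 had -2.23 and 0.40. CG31644, at 2L 5817890 to 5818393, is now called COX6CL, a relative of a cytochrome c oxidase subunit gene. It had 50 ChIP and 22 input reads and a ratio of 0.62, but its interval of -0.05 to 1.31 took in the median of all genes.

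Of the next 5 with at least 20 input reads, CG8476 had the fewest reads, 47 in the ChIP and 20 in the input (0.61, -0.03 to 1.24). CG4683, now Tengl4, a relative of the endonuclease G genes, had 113 and 50 (0.60, 0.17 to 1.03). CG12516 had 86 and 39 reads (0.58, 0.08 to 1.08), and its 10.02 RPKM of ChIP stood well over the isolated median of 6.71. CG5906 had 62 and 28 reads (0.57, -0.0069 to 1.16), and CG32115 had 125 and 57 (0.56, 0.16 to 0.97). Of the 8 highest genes with at least 20 input reads, 7 had intervals above the all-gene median, which ranking by the same reads favours.

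The lowest isolated gene was CG12007, at 3R 953810 to 955665, now RabGGTa, which codes for a subunit of the enzyme that attaches lipid anchors to Rab proteins of vesicle transport. It had 80 ChIP reads against 103 input reads, or 4.90 against 8.85 RPKM, and a ratio of -0.74 (-1.11 to -0.36). It was low in ChIP and high in input, and the isolated gene next to it, CG12589, had -0.22. CG15395, at 2L 2610146 to 2611283, had 30 ChIP and 37 input reads (-0.63, -1.20 to -0.05), while the genes flanking it had 0.15 and 0.33. CG2014, now ND-20L, a relative of a subunit gene of mitochondrial complex I, had 24 ChIP and 28 input reads (-0.59, -1.27 to 0.11).

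CG42712, at 2L 8809400 to 8810032, had the most input of the 182 genes, 10.8 RPKM against 7.36 RPKM of ChIP, and a ratio of -0.50 (-1.08 to 0.08). Its neighbour 15592 bp away is SoxN, a transcription factor gene of the early nervous system, which had -0.64. The gene on its other side, CG42710, had 0.17. CG14317, now bard, lay between the genes htl and sr and had 76 ChIP and 75 input reads (-0.41, -0.84 to 0.0087). CG34050 (-0.40), CG6149 (-0.39) and CG6168 (-0.33) completed the 8 lowest with at least 20 input reads, with intervals that took in the median of all genes. Of those 8 genes, 2 had an interval below that median. The floor left out CG12511 (-0.46) and CG12538 (-0.34), with 19 input reads each.

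**Figure D5:**
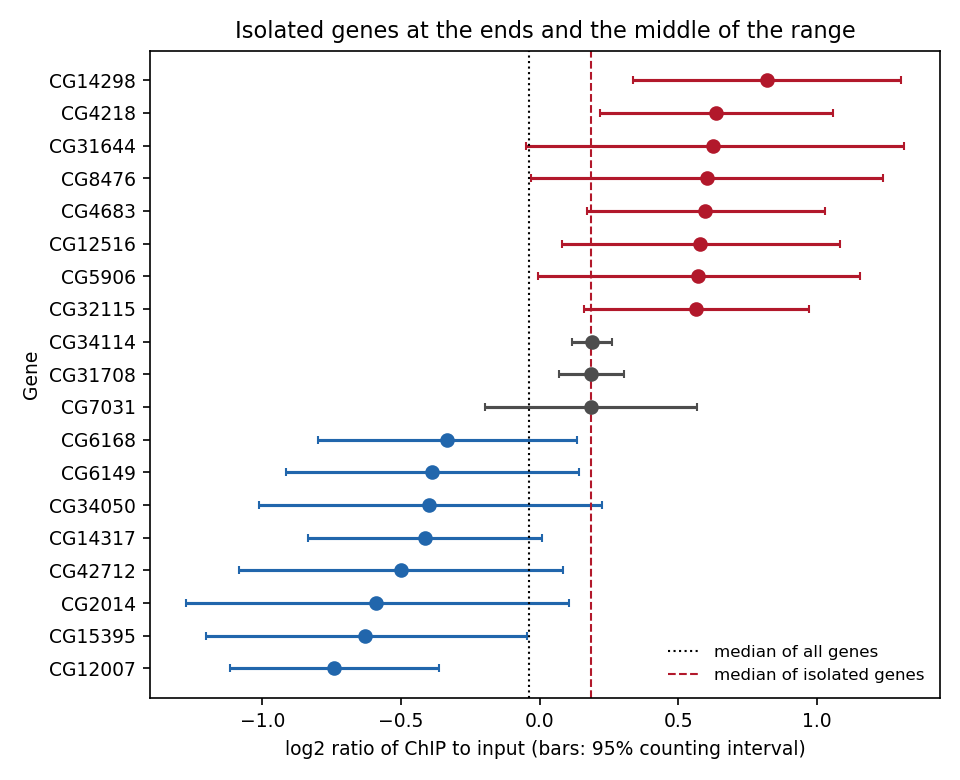
Log2 ratio of dBigH1 ChIP to input (horizontal axis) with 95% counting intervals for the 8 highest, the 3 nearest the median and the 8 lowest isolated genes with at least 20 input reads, from the top down. CG14298 at 0.82 and CG12007 at -0.74 mark the ends, and the long genes CG34114 and CG31708 in the middle have the narrowest intervals.

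The longest isolated genes are deeply covered and exceeded the all-gene median. CG34354, the longest at 92407 bp (3R 23972546 to 24064952), had 4817 ChIP and 2801 input reads and a ratio of 0.25 (0.19 to 0.30). CG34127, now Nlg3, a neuroligin gene for an adhesion protein of synapses, is 69154 bp long and had 4028 and 2200 reads (0.33, 0.26 to 0.39). CG34362, now trv, is 59151 bp long and had 3122 and 2070 reads (0.09, 0.02 to 0.16). CG34354 and CG34362 are neighbours across 61061 bp, and their intervals do not overlap. The shortest genes, CG31644, CG12589 and CG17304, gave 0.62, -0.22 and -0.22 from 13 to 23 input reads and intervals over 1 unit wide. The gene with the least input was CG31813, with 11 ChIP and 9 input reads (1.91 and 2.19 RPKM, -0.13, -1.05 to 0.79).

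Of the 3 genes farthest from any neighbour, the farthest was among the 8 highest and the other two lay near the middle of the set. The farthest was CG4683 (0.60), described above, 41685 bp from its nearest gene. That gene is CG34114, now side-VI, an immunoglobulin-family surface protein gene, which has 38616 bp to the next gene on its other side. CG34114 had 2971 ChIP and 1815 input reads and a ratio of 0.19 (0.12 to 0.26). CG34391, now DIP-delta, a gene for a surface protein that binds Dpr proteins on other neurons, lies 37866 bp from its nearest gene and had 680 and 420 reads (0.18, 0.02 to 0.33). Close to the median of the 182 stood also CG31708, now DIP-zeta of the same family (1151 and 706 reads, 0.19, 0.07 to 0.30), and CG7031 (108 and 66 reads, 0.19, -0.20 to 0.57).

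Of the 182 genes, 174 were found in a RefSeq gene table of the Release 6 assembly, all of them protein coding, and 30 now carry a name there. These 30 had a median of 0.15 and the other 152 one of 0.20. Of the 30, 10 (33.3%) reached 0.3, close to the 34.1% of the whole set and above the 11.4% of all genes. At -0.3 or below were 3 of the 30, or 10%, against 6.04% of the set and 18.7% of all genes. The examples that follow were chosen by their known roles after the values were seen. Genes of neuronal signalling and ion channels included CG8784 (PK2-R1, a pyrokinin receptor), with 293 ChIP and 145 input reads (0.44, 0.20 to 0.69). The second receptor gene of that pair, CG8795 (PK2-R2), 5799 bp away, had 268 and 178 reads (0.09, -0.15 to 0.33). The intervals of this pair of paralogs overlap. CG42796 (5-HT2B, a serotonin receptor) had 2715 and 1753 reads (0.12, 0.05 to 0.20), CG11340 (pHCl-2, a chloride channel) 163 and 84 (0.40, 0.07 to 0.73) and CG14239 (ppk15, a sodium channel of the pickpocket family) 95 and 50 (0.37, -0.06 to 0.80).

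CG18109 (t-Grip91), a testis relative of a gene for the ring complex that nucleates microtubules, had 460 ChIP and 236 input reads (0.42, 0.22 to 0.62). CG3837 (Sdr, a secreted protein that binds insulin-like peptides) had 214 and 109 reads (0.41, 0.12 to 0.70), with 92464 bp of bare sequence between it and CG14861 (0.31). CG31644 (COX6CL, 0.62) and CG4683 (Tengl4, 0.60), described above, had higher ratios than any of these examples. The further examples that follow had lower ratios than CG18109 and CG3837. CG2107 (CPT2), an enzyme gene of fatty acid import into mitochondria, had 105 and 85 reads (-0.15, -0.51 to 0.20). CG7922 (Fancm), a DNA repair gene, had 336 and 253 (-0.07, -0.28 to 0.14), and CG5142 (Ttc30), a gene of transport within cilia, 100 and 66 (0.09, -0.29 to 0.47). CG34380 (smal), a gene for a discoidin-domain receptor, was the low gene with the most reads, 1838 and 1451 (-0.13, -0.22 to -0.04).

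The 3 arms gave medians with overlapping intervals, the highest on 3R. Medians of isolated genes were 0.16 on 2L (-0.0031 to 0.28), 0.15 on 3L (-0.01 to 0.28) and 0.23 on 3R (0.19 to 0.28). Each was above its own close genes, by 0.14 on 2L, 0.16 on 3L and 0.20 on 3R. The isolated interval took in the close-gene median on 2L (0.02) and 3L (-0.0078) and lay above it on 3R (0.02). On 3R 19 of 72 isolated genes (26.4%) had an interval over the all-gene median and 1 (1.39%) under it. Over all genes these shares were 10.6% and 9.59%. Summed over genes, which weights the long ones, the isolated genes had a log2 ratio of reads of 0.18 (0.16 to 0.20), with 0.12 on 2L, 0.10 on 3L and 0.23 on 3R. The close genes summed to 0.03 (0.02 to 0.03).

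Along the arms the excess was uneven. In steps of 5 Mb, with at least 6 isolated genes each, the isolated median was above that of the close genes of the same stretch in every step but that of 5 to 10 Mb on 2L. There 17 isolated genes had a median of -0.10 (-0.22 to 0.17), against 0.0086 for 176 close genes. The next step of 2L, 10 to 15 Mb, had 21 isolated genes with a median of 0.28 (0.0061 to 0.44), and 9 of them reached 0.3. On 3L the 10 isolated genes of the first 5 Mb had -0.0024 and the 22 of 10 to 15 Mb 0.18. On 3R the medians of the 6 steps ran from 0.17 to 0.34.

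Some isolated genes follow one another directly, so they do not all stand in separate stretches of sequence. Of the 182, 63 had another isolated gene as a direct neighbour, in 25 runs, and counting each run once left 144 places. The longest run holds 9 genes over 159 kb of 3L, from 11281036 to 11439679. Their ratios were of both signs, in this order along the DNA: CG6175 -0.17, CG7573 0.33, CG6168 -0.33, CG6163 -0.26, CG42755 -0.14, CG11726 0.06, CG7560 0.48, CG6149 -0.39 and CG7557 0.40. CG7560 and CG6149, 8299 bp apart, had 65 ChIP and 31 input reads against 52 and 50, and their intervals (-0.05 to 1.01 and -0.91 to 0.14) overlap. Summed, the run had 1028 ChIP and 779 input reads and a ratio of -0.09 (-0.22 to 0.05), which was the lowest of the 6 runs of 3 or more genes.

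In 2 other runs all ratios were above 0. CG18420, CG33308 and CG33309, within 17.2 kb of 2L from 14795368 to 14812585, had 0.39, 0.54 and 0.44, and 298 ChIP against 149 input reads in sum (0.51, 0.22 to 0.80). CG5404, CG31294, CG34274 and CG4520, within 41.3 kb of 3R from 11530417, had 0.23, 0.06, 0.38 and 0.34, and 416 against 244 reads (0.28, 0.05 to 0.51). All 7 genes of these 2 runs exceeded the all-gene median, and CG33308 and CG33309 did so by their intervals. The other 3 runs, of 3 genes each, held both signs, with ratios of -0.22 to 0.19 in that of CG9582, -0.34 to 0.24 in that of CG12538 and -0.13 to 0.49 in that of CG7031.

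The isolated genes had a higher median than the genes that flank them, which took a middle place. The isolated median was 0.19, and that of all genes was -0.04. The 281 genes that flank an isolated gene without being one had 0.08 (0.04 to 0.11). These flanking genes could have any symbol or width (median width 2293 bp), so the comparison does not separate isolation from having a CG number. Gene by gene the difference was less marked. Of the 182 isolated genes, 105 had a higher ratio than the mean of their 2 flanking genes. There were 74 higher than both, 51 lower than both and 57 between them. The median difference from that mean was 0.06. Isolated genes in the lowest tercile by the mean of their flanks (61 genes) had a median of 0.07 (-0.07 to 0.24), those in the middle tercile (60 genes) 0.23 and those in the highest tercile (61 genes) 0.20. Across the 182 genes the ratio and the mean of the flanks had a Pearson r of 0.18 and a Spearman rho of 0.21, given as a description of points that share libraries and, within runs, each other's values. Within the set the ratio had almost no relation to the distance of the nearest gene (rho 0.07) or to width (rho 0.05). Its rho was -0.45 with input RPKM and 0.42 with ChIP RPKM, both of which enter the ratio.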

How the data were processed

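Embryo chromatin was measured as 1 dBigH1 ChIP and 1 input library. Per the labels' protocols, single reads of 50 nt came from fragments of 300 to 350 bp after 18 PCR cycles on 3.5 ng of DNA. The build dm3, Bowtie2, R 2.15, CASAVA 1.9 and FastQC 0.10 stand in the submitters' processing notes without their roles. The counting tool, annotation and filters are not given there.

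Per the file headers, the authors deposited log2 RPKM for each library and a MAnorm score named as a log2 fold change. Taken as log2(RPKM + 1), 100% of values came out as whole reads per gene width, to within 1e-05 reads. The deposited score had an SD of 1.00 and was used only as an alternative. Distances were the bases between a gene and the nearest gene of the table, on either strand. Of 15627 genes, 6566 overlapped another, and reads in the shared bases cannot be assigned to a single gene.

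The members and the comparison sets were chosen with earlier results of these data known. Genes named by rule were the 8 lowest, 8 highest and 3 nearest the median of those with at least 20 input reads, the 3 longest, 3 shortest and 3 farthest from neighbours, and those with the lowest and highest input. Genes at the limits, in runs, or with a current name were added after their values were seen. Current names came from RefSeq through Entrez numbers, with names only used. Alternatives are listed with their values in the closing section. Promoters were not used here. Tools were matplotlib 3.10.9, scipy 1.17.1, pandas 2.3.3, numpy 2.4.6, statsmodels 0.14.6 and Python 3.11.15, and the steps were tested on simulated data.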

Additional observations from a re-analysis of the deposited data

How the results depend on the processing

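The isolated median, its differences from the other sets and the summed ratio kept their direction under every alternative run. Counts of genes have no direction. Of 16 alternatives, 13 kept the isolated median within its interval. Less the median of the other set, that interval runs from 0.13 to 0.23 for the difference from close genes. For overlapping genes it runs from 0.17 to 0.27, and 15 of 19 alternatives stayed within each. Centring on the median of all genes is among the 19 and cannot change a difference. Many alternatives reuse the same genes, so they are not independent of each other. The counts were less stable. The count at 0.3 or more moved by more than a set factor in 8 of 17 alternatives, and that at -0.3 or less in 11 of 17. The counts of intervals above and below the all-gene median moved in 4 and 3 of 10. With a pseudocount of 5 RPKM the isolated median was 0.12, its difference from close genes 0.12 and from overlapping genes 0.14, with 23 genes at 0.3 or more and 4 at -0.3 or less. With none, 17 were at -0.3 or less. Within strata of width and input RPKM together the differences were 0.11 and 0.13. With every symbol in place of CG numbers (317 genes) the median was 0.089, the differences 0.11 and 0.13 and the summed ratio 0.080. With every symbol, 30 genes (9.46%) were at -0.3 or less. There 75 intervals (23.7%) lay above and 25 (7.89%) below the median of all genes. On the score in the authors' deposited table, which is not a log2 ratio, the median was 0.69 and the differences 0.54 and 0.66. By that score 120 and 30 genes passed 0.3 up and down. The shares of all genes given above are for the log2 ratio with 1 RPKM added and for thresholds of 0.3 and -0.3. None is given for the score or for another pseudocount. Counts under those settings therefore cannot be read as an excess or a deficit.

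At least 2000 bp on both sides (328 genes) gave 99 high and 22 low genes and 75 intervals above. At least 10000 bp (79 genes) gave 28 high, 3 low, 19 intervals above and 1 below. Genes of at least 1000 bp (121) gave 40 high and 4 low. A threshold of 0.2 gave 21 low genes, and one of 0.5 gave 16 high and 4 low. Leaving out an arm, chosen after the data were seen, gave 41 high genes and 1 interval below without 2L, 7 low genes without 3L, and 35 high, 7 low and 23 intervals above without 3R, where the summed ratio was 0.11. Where a setting adds or removes genes, the counts also move with the number of genes. The reads of a median isolated gene cannot resolve ratios below its counting error. No paired analysis was possible because each group had 1 library. A value within strata was not run for the median of the isolated genes alone, since it needs a second set.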

Other observations

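The same rule of symbol, width and distance on the arms outside the set gave isolated genes whose medians also exceeded those of close and overlapping genes. On 2R, 40 isolated genes had a median log2 ratio of 0.09 (-0.02 to 0.18), against -0.0032 for 723 close genes and -0.05 for 633 overlapping genes. On the X, 50 isolated genes had 0.03 (-0.05 to 0.06), against -0.15 for 653 close genes and -0.10 for 453 overlapping genes. The differences from close genes, 0.10 on 2R and 0.18 on the X, lay near those of the other arms. A ratio of 0.3 was reached by 7 of the 40 isolated genes on 2R (17.5%), against 10.1% of close genes there, and by 4 of the 50 on the X (8.0%), against 5.05% of close genes there and 11.4% of all genes. At -0.3 or below were 3 of the 40 on 2R (7.5%), against 12.9% of close genes, and 6 of the 50 on the X (12.0%), against 25.4% of close genes. Input was lower over isolated genes on both, with medians of 5.78 RPKM against 6.66 RPKM in close genes on 2R, and of 4.71 RPKM against 4.87 RPKM on the X. On the X the ChIP median was 4.66 RPKM over isolated genes and 4.41 RPKM over close genes. No limit on the pericentric ends was set on these 2 arms, and no difference was tested.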
